A study of Mus musculus with 6 samples.

Results

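The unfolded protein response and the folding machinery of the endoplasmic reticulum (ER) were followed through 34 named genes, chosen as a list of ER stress sensors, transcription factors, chaperones, isomerases and degradation factors. Each gene was represented by the brightest probe set paired with it alone, that is, the one with the highest mean over 6 arrays. All 34 were found among the 18193 genes of the table. The 3 caspase-8 deficient arrays came from C57BL/6 mice with a floxed Casp8 gene and the villin-Cre transgene, and the 3 floxed control arrays from C57BL/6 mice with the floxed gene and no Cre. Villin drives Cre in the gut epithelium, and both groups carry the floxed allele. Each array held RNA of intestinal epithelial cells of 1 mouse. The sources used here give neither the age of the mice nor the part of the gut. The question was what loss of caspase-8, a protease of death receptor signalling that also holds back necroptosis, does to gene expression in the epithelium.

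Secreted and membrane proteins fold in the ER, and unfolded proteins there set off 3 sensors of its membrane. IRE1, encoded by Ern1 and Ern2, splices the messenger of the transcription factor XBP1. PERK, encoded by Eif2ak3, slows translation and raises ATF4 and then CHOP (Ddit3), and ATF6 is cut to release a transcription factor. Ern1 is expressed in most tissues, while Ern2 is a gene of mucosal epithelium and of its mucus-secreting goblet cells, whose ER handles large mucins.

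Of the 34 genes, Ern2 alone passed, lower in caspase-8 deficient cells, and 0 rose. The general ER genes, meaning the other 33, did not pass (limma, adjusted p under 0.05 over 18193 genes). Over all genes 0.775% passed, 0.467% as lower and 0.308% as higher. At an unadjusted p under 0.05, 7 of the 34 genes stood out, against 16.6% of all genes. The differences of the 33 general ER genes ran from −0.42 to 0.74 on the log2 scale. Of these, 24 were negative and 9 positive, with a median of −0.15, against a median of 0.022 and 53.9% positive differences over all genes. The size of this lean depended on the probe sets. With the mean over the probe sets of each gene, 22 of the 33 were negative and their median was −0.067. The groups did not overlap in 12 of the 34 genes, against 22.7% of all genes in either direction. In 11 of the 12 the deficient arrays were the lower ones, a pattern that 11.2% of all genes showed. The 95% confidence interval lay within a 2-fold change either way for 31 of the 34 genes. The 3 exceptions were Ern2, Trib3 and Chac1. The 34 genes have 44 other probe sets, of which 31 had the sign of the one used. With every probe set tested by itself, where 0.398% of 34945 passed, the Ern2 probe set was again the 1 of the members' 78 that passed (limma adjusted p = 0.0311).

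Values are log2 expression after RMA (robust multi-array average), and differences are caspase-8 deficient minus floxed control. Casp8 read 9.27, 9.56 and 10.40 in deficient replicates 1 to 3, against 10.53, 9.74 and 10.24 in control replicates 1 to 3, and its difference of −0.43 did not pass (limma, adjusted p = 0.518). Whether the probe set lies inside the deleted part is not known here, so its values were not used to check the genotypes. RNA degradation raises the signal of 3′ over 5′ control probe sets. For Gapdh this difference (3′ minus 5′) was 0.29, 0.21 and 0.23 in the deficient arrays and 0.68, 0.93 and 0.22 in the controls. Enterocyte markers averaged 13.0 in the deficient arrays and 12.8 in the control arrays, so that the labelled epithelium was present. The endothelial markers stood 2.74 above the control mean in deficient replicate 1, against 0.072 and 0.040 in the other deficient arrays.

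**Figure D1:**
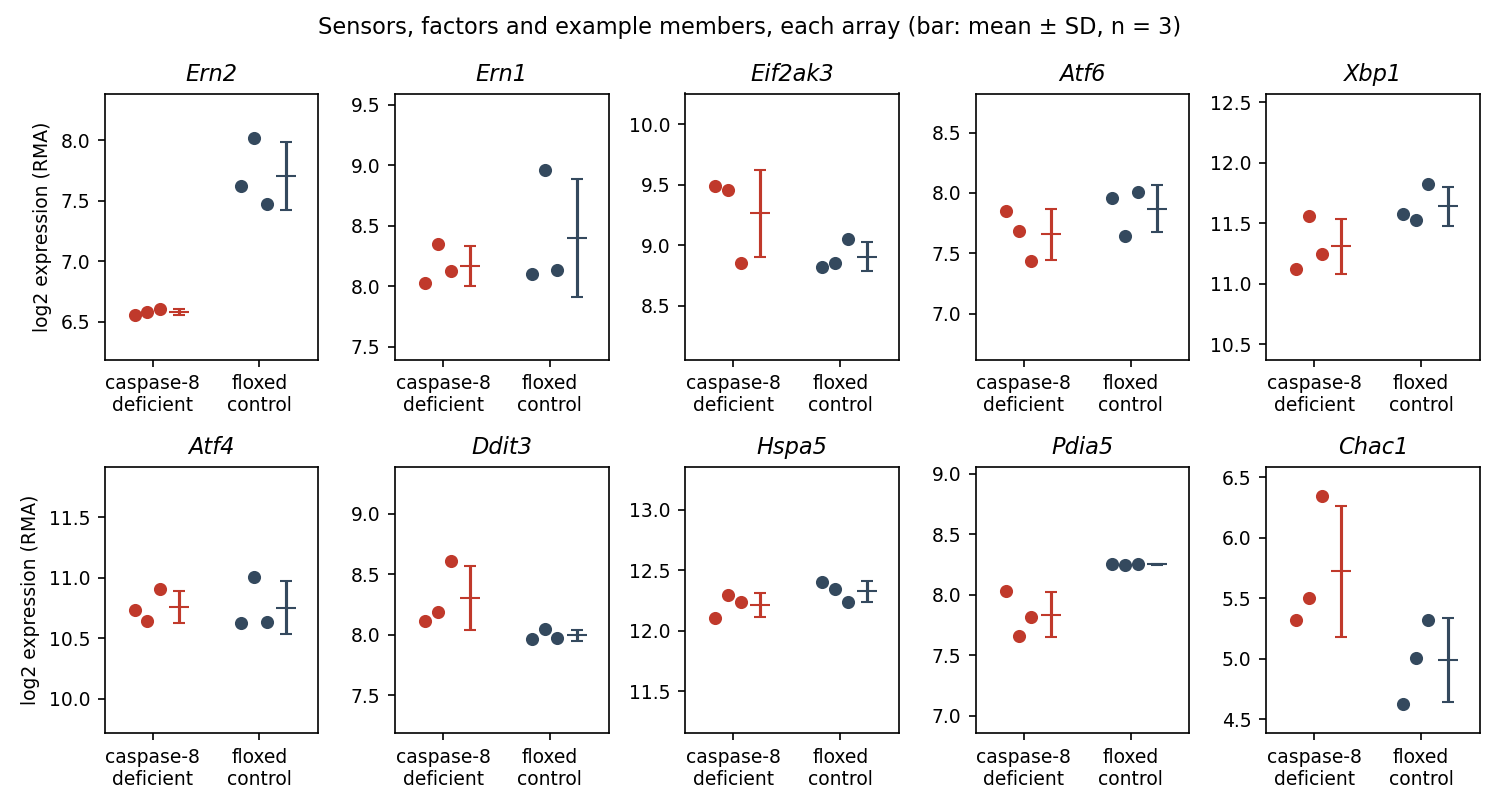
Log2 expression of 10 members on each array, caspase-8 deficient on the left of each panel and floxed control on the right, with the mean and SD of 3 arrays beside the points. Every panel spans the same range of 2.2 log2 units. Ern2 is the panel with a wide gap, its deficient arrays lying between 6.55 and 6.60 and its controls between 7.47 and 8.02.

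Among the sensors, Ern2 read 6.55, 6.58 and 6.60 in deficient replicates 1 to 3, against 7.62, 8.02 and 7.47 in the controls. All 3 deficient arrays lay below all controls, and they differed among themselves far less (SD 0.024) than the controls did (SD 0.28, n = 3 each). The difference was −1.13 (SE 0.15, 95% confidence interval −1.48 to −0.77), or 2.18-fold lower, with an adjusted p of 0.0255 in limma. It was the gene with the 57th smallest p of the table. Ern2 has 1 probe set, of a type that is not prone to cross-hybridisation. The size of the change was steady when single arrays were left out, from −1.24 to −0.97, but the call was not. Without deficient replicate 2 or 3 the adjusted p was 0.133 and 0.104, and without control replicate 1 or 2 it was 0.107 and 0.0518. Without deficient replicate 1 or control replicate 3 Ern2 still passed (0.0398 and 0.0408). With the Gapdh 3′ minus 5′ difference as a covariate Ern2 stood at −0.87 (limma adjusted p = 0.161), and without control replicates 1 and 2, which have the highest Gapdh differences, at −0.89 (adjusted p = 0.385).

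Markers of goblet and Paneth cells, both secretory cells of the epithelium, averaged lower in deficient cells, as Ern2 did. Within the controls, replicate 2 was the highest for Ern2 and the lowest for both marker means. The goblet mean includes Retnlb, which read 6.72, 4.34 and 8.02 in the controls, by far the widest spread of these markers (SD 1.87). Single goblet markers differed, Muc2 being highest and Spink4 lowest on control replicate 2. The control order of the goblet mean therefore does not describe the goblet markers as a set. Of 12 measured goblet cell markers, 5 fell in limma (Clca1, Spink4, Muc2, Galnt12 and Atoh1), 12 of 12 differences were negative, and the median was −0.82. Over all genes 0.467% passed as lower, and 53.9% of the differences were positive. Relative to the control mean, the goblet markers averaged −0.98, −0.95 and −0.86 in the deficient arrays and −0.026, −0.088 and 0.11 in the controls. Ern2 on the same scale stood at −1.15, −1.13 and −1.10 in the deficient arrays and −0.080, 0.31 and −0.23 in the controls. Of 6 Paneth cell markers 5 fell, and their mean deviations were −1.67, −1.79 and −2.05 in the deficient arrays and 0.054, −0.18 and 0.13 in the controls. Of 8 enteroendocrine markers, a further secretory lineage, 1 fell (Gcg), with a median of −0.20 and smaller mean deviations of −0.34, −0.42 and −0.29 in the deficient arrays and −0.18, 0.068 and 0.12 in the controls. The mean level of the goblet markers ran from 9.70 to 9.82 in the deficient arrays and from 10.6 to 10.8 in the controls, well above the array medians of 4.85 to 4.91 over all probe sets. In whole preparations of epithelium, fewer cells of a type and less RNA per cell cannot be told apart, and the part of these markers in the Ern2 result was not tested.

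Ern1, the IRE1 gene of most cells, read 8.03, 8.35 and 8.12 in deficient cells, against 8.10, 8.96 and 8.14 in controls. The groups overlapped, with control replicate 2 standing above all other arrays. The difference was −0.23 with an SE of 0.23, and its 95% confidence interval ran from −0.77 to 0.31 (limma adjusted p = 0.660, not passed). Its other 4 probe sets, all dimmer, gave differences from −0.30 to 0.36, and their mean with the one used was 0.0070. The contrast between the pair was also tested within each array, where the offset between probe sets cancels between groups. Ern2 minus Ern1 was −1.47, −1.77 and −1.52 in deficient arrays, against −0.47, −0.94 and −0.67 in controls. The groups did not overlap, and the ratio was lower by 0.90 in deficient cells on the log2 scale (exact permutation test, two-sided, p = 0.1, the smallest that 3 against 3 arrays allow). The same comparison of Ern2 with each of the 33 general ER genes gave groups that did not overlap, lower in deficient cells, in 33 of 33, with shifts from −0.71 for Pdia5 to −1.86 for Chac1. The background for this count is high, since 96.4% of the other genes of the table gave the same picture, and the 33 comparisons share the values of Ern2.

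**Figure D2:**
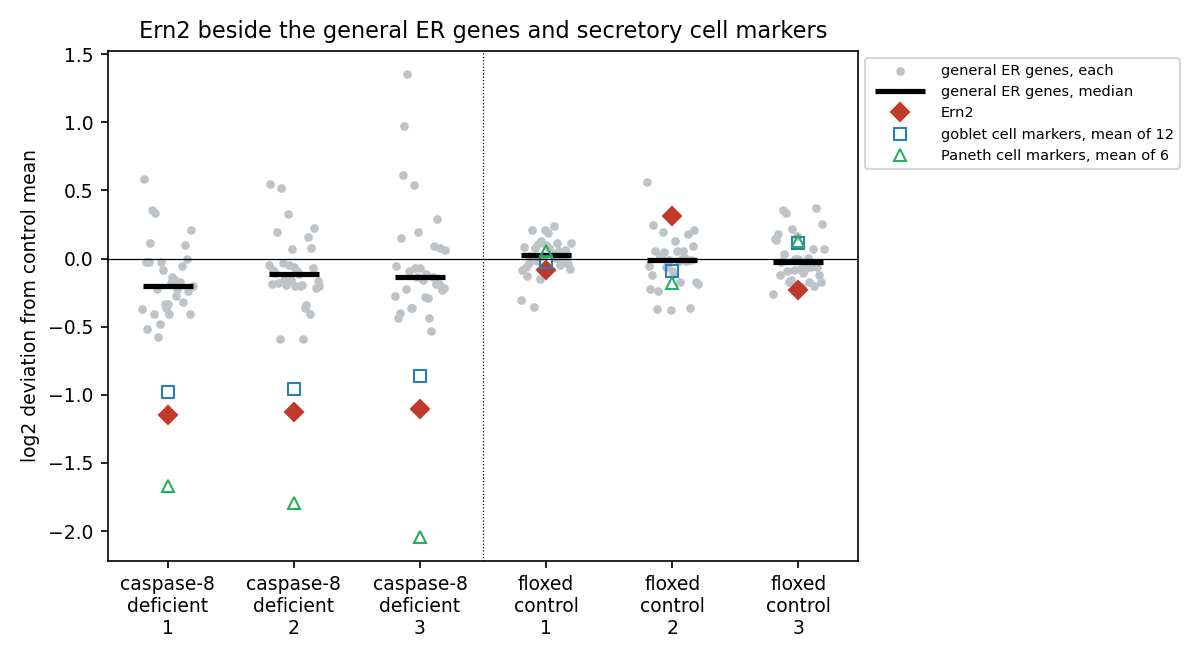
Log2 deviation from the control mean (vertical axis) on each of the 6 arrays (horizontal axis), for Ern2 (diamonds), each of the 33 general ER genes (grey points, their median as a bar), and the mean of goblet (squares) and Paneth (triangles) cell markers. In the 3 deficient arrays the bars lie at −0.20, −0.11 and −0.14, while Ern2 lies from −1.15 to −1.10, next to the goblet markers.

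The other sensors did not pass. Eif2ak3, which encodes PERK, read 9.49, 9.46 and 8.85 in deficient cells, against 8.82, 8.85 and 9.05 in controls. Deficient replicates 1 and 2 lay above the controls and replicate 3 among them, and the difference of 0.36 did not pass (limma adjusted p = 0.377). Its other probe sets stood at 0.33 and 0.39. Atf6 read 7.85, 7.69 and 7.44 in deficient cells, against 7.96, 7.65 and 8.01 in controls. These groups overlapped (difference −0.21, limma adjusted p = 0.520), and the other Atf6 probe sets gave 0.10 and −0.34.

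Of the transcription factors, Xbp1 read 11.12, 11.56 and 11.24 in deficient cells, against 11.57, 11.52 and 11.82 in controls. Deficient replicate 2 lay among the controls and the others below, and the difference of −0.33 did not pass (limma adjusted p = 0.323). All 4 Xbp1 probe sets had negative differences, from −0.33 to −0.13. The array measures the total messenger, so the spliced form that IRE1 makes was not measured. Atf4, which is regulated mainly through its translation, read 10.73, 10.65 and 10.91 in deficient cells, against 10.63, 11.01 and 10.63 in controls. Its difference was 0.0063 with a 95% confidence interval of −0.33 to 0.34. Ddit3, the CHOP gene, read 8.11, 8.19 and 8.61 in deficient cells, against 7.97, 8.05 and 7.97 in controls. All deficient arrays lay above all controls, yet the difference of 0.31 did not pass (limma adjusted p = 0.350), and its second probe set gave 0.026.

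Targets of ATF4 and CHOP split in direction, and 0 of the 3 passed in limma, while 2 had an unadjusted p under 0.05, as 16.6% of all genes had. The promoter windows of all 3 hold a C/EBP-ATF response element (CARE), the kind of site that ATF4 binds, searched as TGATGNAA on both strands. The windows run from 250 bases before to 50 after the start of each gene and come from RefSeq (GRCm38.p6). Windows were matched by symbol for 29 of the 34 genes, the others being Ern2, Atf6, Hyou1, Manf and Derl1. The element was found in 4 of the 29, against 3.97% of all 32851 windows. The sites are printed 5′ to 3′ along the motif with 10 bases on each side, and the capitals mark its fixed letters.
Chac1, chr2:119351049-119351056, minus strand: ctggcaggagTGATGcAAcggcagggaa
Trib3, chr2:152344039-152344046, plus strand: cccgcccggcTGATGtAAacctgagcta
Asns, chr6:7693225-7693232, minus strand: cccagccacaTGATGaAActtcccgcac
Herpud1, chr8:94386317-94386324, minus strand: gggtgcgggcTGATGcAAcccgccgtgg
Chac1 promoter, chr2:119350992-119351291, plus strand: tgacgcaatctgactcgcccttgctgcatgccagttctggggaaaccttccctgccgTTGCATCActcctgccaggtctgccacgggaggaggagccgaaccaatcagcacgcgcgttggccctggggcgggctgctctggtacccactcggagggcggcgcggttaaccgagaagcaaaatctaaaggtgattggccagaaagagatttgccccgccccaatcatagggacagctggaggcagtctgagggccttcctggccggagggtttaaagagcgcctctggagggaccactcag
In the Chac1 promoter window, shown whole because that gene had the highest difference of the 34, the capitals mark the element as it reads on the strand of the gene. A match is a description of the letters and not evidence of binding.

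Chac1, an enzyme that degrades glutathione, read 5.32, 5.50 and 6.34 in deficient cells, against 4.63, 5.01 and 5.32 in controls. Deficient replicate 3 lay highest, and the lowest deficient array equalled the highest control. The difference was 0.74 with an SE of 0.28, and its 95% confidence interval ran from 0.083 to 1.39 (limma adjusted p = 0.253, not passed). Trib3, a pseudokinase that restrains AKT and ATF4, read 7.66, 7.12 and 8.28 in deficient cells, against 7.32, 6.93 and 7.66 in controls, and its groups overlapped (difference 0.38, limma adjusted p = 0.552). Asns, which makes asparagine, ran the other way, with 8.49, 8.31 and 8.67 in deficient cells against 9.10, 8.66 and 8.93 in controls. Deficient replicate 3 lay just above control replicate 2, and the difference of −0.40 did not pass (limma adjusted p = 0.252). The values of deficient replicate 3 were the highest of the 6 arrays for Chac1, Trib3 and Ddit3. Without that array the 3 stood at 0.43, 0.089 and 0.16.

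The chaperones keep client proteins soluble in the ER lumen, and their promoters are known for the ER stress response element (ERSE), which ATF6 and XBP1 bind together with NF-Y. It was searched on both strands as CCAAT, 9 bases of any kind and CCACG, and its shorter relative ERSE-II as ATTGG, 1 base of any kind and CCACG. An ERSE stood in 9 of the 29 windows, against 0.119% of all 32851 windows, and an ERSE-II in 2 of the 29, against 0.0365%. The XBP1 element TGACGTGG stood in 0 of the 29 and in 0.676% of all windows. None of the 16 matches of these motifs and CARE in the 29 windows overlapped another. The genes were listed as known members of this pathway, so the share is a property of the list and not of these cells. The sites are shown because 7 of the 11 chaperones share one or the other. Hyou1 and Manf, also among the 11, had no window and were not searched. They are printed along the motif, the capitals marking its fixed letters and the lower case the spacer.
Hspa5, chr2:34772025-34772043, plus strand: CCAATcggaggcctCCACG
Hsp90b1, chr10:86705533-86705551, plus strand: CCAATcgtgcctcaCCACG
Hsp90b1, chr10:86705638-86705656, minus strand: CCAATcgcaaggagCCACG
Dnajc3, chr14:118937827-118937845, plus strand: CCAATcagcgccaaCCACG
Creld2, chr15:88819520-88819538, minus strand: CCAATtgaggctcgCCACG
Calr, chr8:84847075-84847093, plus strand: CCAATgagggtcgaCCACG
Canx, chr11:50325800-50325818, minus strand: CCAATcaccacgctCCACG
Pdia6, chr12:17266491-17266509, plus strand: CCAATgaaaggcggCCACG
Syvn1, chr19:6046532-6046550, plus strand: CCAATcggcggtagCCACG
Derl3, chr10:75893242-75893260, minus strand: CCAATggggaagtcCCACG
Dnajb11, chr16:22857852-22857862, plus strand: ATTGGcCCACG
Herpud1, chr8:94386377-94386387, plus strand: ATTGGgCCACG
Hspa5 promoter, chr2:34771840-34772139, plus strand: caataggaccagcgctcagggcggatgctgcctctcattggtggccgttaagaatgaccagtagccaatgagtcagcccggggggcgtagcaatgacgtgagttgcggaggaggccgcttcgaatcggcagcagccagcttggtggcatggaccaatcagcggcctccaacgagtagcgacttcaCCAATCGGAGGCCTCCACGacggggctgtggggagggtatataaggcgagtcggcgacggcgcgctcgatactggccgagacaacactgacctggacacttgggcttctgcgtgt
The Hspa5 window, shown whole as the best known case, carries its match 65 bases before the start of the gene. The 11 genes with either element had 9 negative and 2 positive differences with a median of −0.14, and 0 passed in limma. The 18 without it had 11 negative and 7 positive differences, a median of −0.098, and likewise 0 that passed. Ern2, the member that passed, is in neither group for want of a window, so these counts of 0 follow from its absence.

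Of 11 chaperones and cochaperones, 10 had negative differences and 1 a positive one, with a median of −0.15. In limma 0 passed, and 2 of the 11 had an unadjusted p under 0.05, a share near the 16.6% of all genes. Hspa5, the chaperone BiP that also holds the sensors inactive, read 12.10, 12.29 and 12.24 in deficient cells, against 12.40, 12.34 and 12.23 in controls. The groups overlapped, and the difference of −0.12 had a 95% confidence interval of −0.38 to 0.15 (limma adjusted p = 0.649). Its other probe sets gave −0.018 and 0.047. The upper end of the interval was thus 0.15 for the probe set used, and 0.31 for each of the others.

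Hyou1, the BiP partner GRP170, read 9.14, 9.43 and 9.26 in deficient cells, against 9.72, 9.67 and 9.46 in controls. All deficient arrays lay below all controls by a narrow margin, and the difference was −0.34 (limma adjusted p = 0.250, not passed). The other Hyou1 probe sets gave −0.17 and −0.15, with groups that overlapped. Hsp90b1, the HSP90 of the ER, read 11.16, 11.58 and 11.37 in deficient cells, against 11.72, 11.93 and 11.56 in controls. Here deficient replicate 2 lay just above control replicate 3 (difference −0.37, limma adjusted p = 0.283). Creld2, a protein induced by ER stress, had 9.01, 9.21 and 9.27 in deficient cells, against 9.60, 9.30 and 9.34 in controls, without overlap. Dnajc3, a J-domain cochaperone of BiP, had 10.31, 10.48 and 10.51 in deficient cells, against 10.66, 10.63 and 10.64 in controls, again without overlap. The lectin chaperone Canx had 11.77, 11.79 and 11.62 in deficient cells, against 11.95, 11.96 and 11.79 in controls, and its groups were set apart by a margin smaller than the rounding of these values. These 3 differences, of −0.25, −0.21 and −0.18, did not pass. Other Dnajc3 probe sets ran from −0.28 to −0.069, some with overlap and some without. The other Canx probe sets gave −0.17 and −0.26, with groups that overlapped.

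Dnajb9, the cochaperone ERdj4 and an XBP1 target, was the 1 member of the group with a positive difference. It read 10.07, 10.42 and 10.64 in deficient cells, against 9.95, 10.03 and 10.31 in controls, and the groups overlapped (0.28, limma adjusted p = 0.454). The remaining 4, Manf, Calr, Dnajb11 and Sdf2l1, lay between −0.15 and −0.031 with groups that overlapped. Sdf2l1, which works with Dnajb11, was low on 1 array of each group, with 8.82 in deficient replicate 1 and 8.81 in control replicate 2.

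All 5 disulfide and prolyl isomerases, which form disulfide bonds or turn proline bonds, had lower values on every deficient array than on every control, although 0 passed in limma. Groups apart in this direction were seen in 11.2% of all genes. An unadjusted p under 0.05 was reached by 2 of the 5, against 16.6% of all genes. Pdia5 read 8.03, 7.66 and 7.82 in deficient cells, against 8.25, 8.25 and 8.25 in controls. Its controls were almost identical, and the difference of −0.42 (SE 0.13) was the most negative among the general ER genes (limma adjusted p = 0.176, not passed). Pdia6 read 9.95, 9.79 and 9.62 in deficient cells, against 10.27, 10.21 and 9.98 in controls. Here deficient replicate 1 lay close to control replicate 3, and the difference was −0.37 (limma adjusted p = 0.242).

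Pdia4 read 8.66, 8.74 and 8.65 in deficient cells, against 9.18, 8.77 and 8.87 in controls (difference −0.25). Ppib, the prolyl isomerase cyclophilin B, read 11.27, 11.10 and 11.30 in deficient cells, against 11.50, 11.45 and 11.38 in controls (−0.22). Pdia3, which works with the lectin chaperones on glycoproteins, read 11.18, 11.13 and 11.22 in deficient cells, against 11.37, 11.32 and 11.31 in controls (−0.15). Gaps between the groups were small in all 3, and their adjusted p values in limma were 0.396, 0.384 and 0.493. Second probe sets gave −0.29 for Pdia4, −0.042 for Ppib, 0.13 for Pdia3 and −0.027 for Pdia6, so the gap did not recur for Ppib, Pdia3 and Pdia6.

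**Figure D3:**
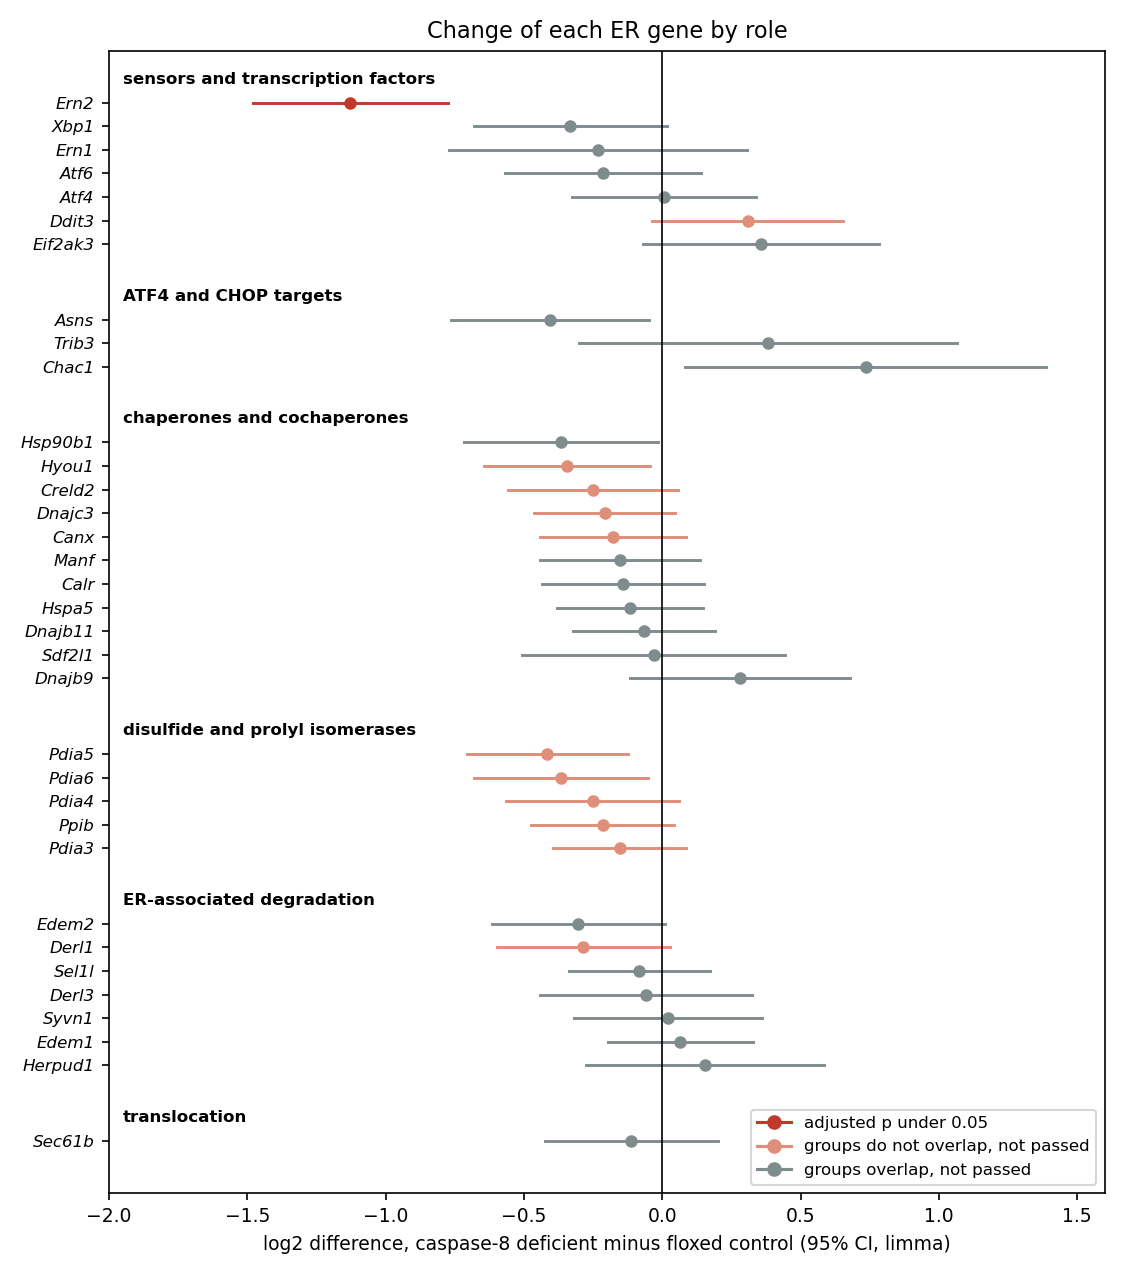
Log2 difference, caspase-8 deficient minus floxed control, of each of the 34 genes with its 95% confidence interval (limma), grouped by role. Ern2 is the 1 gene coloured as passing, and the 5 isomerases all lie left of 0, between −0.42 and −0.15.

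Of 7 genes of ER-associated degradation, which sends misfolded proteins back to the cytosol, 4 had negative and 3 positive differences, with a median of −0.058. In limma 0 passed, and 0 had an unadjusted p under 0.05, against 16.6% of all genes. Derl1, a derlin of the exit channel, read 10.23, 10.42 and 10.41 in deficient cells, against 10.60, 10.85 and 10.47 in controls, without overlap (−0.29, limma adjusted p = 0.341). Its probe sets disagreed, the other 3 giving 0.38, 0.13 and −0.16. Edem2, which trims mannose from misfolded glycoproteins, stood at −0.30 with overlapping groups, and its relative Edem1 at 0.065. Sel1l and Syvn1, the subunits of the ubiquitin ligase HRD1, stood at −0.084 and 0.021. The other Sel1l probe sets, all dimmer, gave positive differences from 0.041 to 0.37. Herpud1, a scaffold of that complex, read 10.36, 10.34 and 10.55 in deficient cells, against 10.25, 9.91 and 10.64 in controls (0.15, limma adjusted p = 0.720). Control replicate 2 was low for it, and without that array the difference was −0.026. Derl3 stood at −0.058 and Sec61b, a subunit of the channel through which proteins enter the ER, at −0.11.

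Other genes of the same pathways were listed by function, leaving out the 34, and 87 of 96 symbols were measured, some genes being listed under both an old and a current symbol. Of 27 genes of the stress response, 1 rose, 1 fell and 25 did not pass, with a median of 0.11. Over all genes 0.308% passed as higher and 0.467% as lower. An unadjusted p under 0.05 in limma was reached by 8 of the 27, against 16.6% of all genes. In 9 of the 27 the groups did not overlap, against 22.7% of all genes. Of these 9, 6 were higher and 3 lower in deficient cells. Nupr1, a small stress-induced regulator of transcription, read 7.29, 6.29 and 6.77 in deficient cells, against 9.02, 9.18 and 9.17 in controls. The groups lay far apart, and Nupr1 was 5.06-fold lower (log2 −2.34, SE 0.23, limma adjusted p = 0.00716). The call was lost without deficient replicate 3 (adjusted p = 0.0725) or control replicate 2 (0.0586), and with the Gapdh difference as a covariate (0.0891). Creb3l2, a transcription factor released from the ER membrane by cleavage, read 8.94, 9.02 and 8.89 in deficient cells, against 8.25, 7.92 and 8.02 in controls. It was 1.85-fold higher without overlap (log2 0.89, SE 0.12, limma adjusted p = 0.0263), and the call was kept without deficient replicate 1 but lost without any other single array (0.0684 to 0.151) and with the Gapdh covariate (0.1998). Its relative Creb3l1 stood at −0.83 and the stress factor Atf3 at 0.64, both without overlap and without passing (limma adjusted p = 0.0862 and 0.132).

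Of 19 other folding genes 0 passed in limma, with 9 at an unadjusted p under 0.05, against 16.6% of all genes. In 10 of the 19 the groups did not overlap, against 22.7% of all genes, and 6 of these were lower and 4 higher in deficient cells. Ero1a, the oxidase that recharges disulfide isomerases, read 9.38, 9.38 and 9.47 in deficient cells, against 8.71, 8.89 and 8.72 in controls. Its difference of 0.63 (SE 0.11) fell just short (limma adjusted p = 0.0512). P4hb, the main disulfide isomerase, stood at 0.33 and thus opposite to the 4 Pdia genes above (limma adjusted p = 0.231). Pdia2, an isomerase known from pancreas, stood at −1.02 (limma adjusted p = 0.0849), reading 3.76, 3.84 and 3.84 in deficient cells against 5.29, 4.84 and 4.36 in controls. Its mean of 4.32 lay below the median of all probe set means (4.87), so Pdia2 counted among the dim genes. Fkbp11 stood at −0.68 by the probe set used, and at 0.37 by the probe set that remains when types prone to cross-hybridisation are left out. It belongs also to the plasma cell list, of which 0 of 9 genes passed, 7 were negative and the mean deviations ran from −0.57 to −0.31 in deficient arrays and from −0.27 to 0.54 in controls. The goblet marker Agr2 is in the folding list too, and the part of these cells in the values was not tested.

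Of 14 other degradation genes 0 passed in limma, with 2 at an unadjusted p under 0.05 (16.6% of all genes) and a median of 0.033. The most positive were Selenok and the ubiquitin-conjugating enzyme Ube2j1 (0.41 and 0.40), and the most negative Man1b1 and Erlec1 (−0.33 and −0.18). Of 27 genes of entry into and exit from the ER 0 passed in limma, with 9 at an unadjusted p under 0.05 (16.6% of all genes) and a median of −0.054. The COPII coat genes Sec24d and Sar1b, which bud vesicles from the ER, stood at 0.76 and 0.56 without overlap. Both had their lowest value on control replicate 2, at 9.39 and 10.79. The signal peptidase subunits Spcs3 and Sec11c stood at −0.39 and −0.34, also without overlap.

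**Figure D4:**
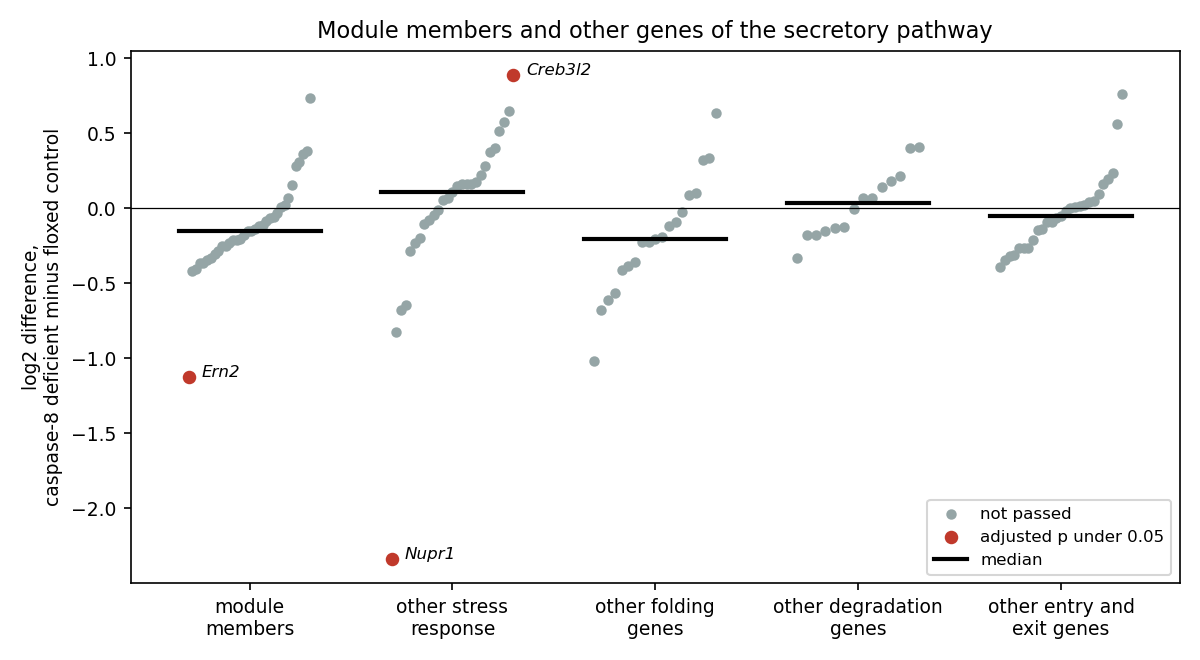
Log2 difference, caspase-8 deficient minus floxed control (vertical axis), of the 34 genes and of 4 further lists of ER genes, each point 1 gene and each bar the median of its list. The genes that passed are Ern2 (−1.13), Nupr1 (−2.34) and Creb3l2 (0.89), and the medians of the lists lie between −0.21 and 0.11.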

How the data were processed

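Biotin-labelled cRNA from intestinal epithelial cells of 6 mice was measured on a 3′ Affymetrix array, per the labels' protocols. The authors deposited log2 expression values made with RMA, per the submitters' processing notes, with version and build not given in the sources used here. RMA pulls dim signals towards a floor, which understates the changes of dim genes. There are no detection calls, and precision is limited by the number of arrays. Of 45101 probe sets, 34945 had 1 gene in the platform's annotation (some of it dated), 932 several and 9160 none, besides 64 control probe sets. The brightest probe set stood for each of 18193 genes. Deficient minus control was fitted with limma 3.58.1 in R 4.3.3 (lmFit, eBayes, group as the only term, two-sided), with Benjamini-Hochberg adjustment over the 18193 genes and a threshold of 0.05. The steps were tested on simulated data. Replicate numbers come from the sample titles. The labels call the arrays biological replicates, so p-values measure the spread between mice.

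The members, the gene lists and the rules were chosen with earlier results of these data known. The text describes Ern2, members that passed, members whose groups do not overlap, the 3 largest differences either way, the sensors, Xbp1, Atf4, Ddit3 and Hspa5, and, of the further lists, genes that passed and the 2 largest differences either way. Dnajb9, Edem2, Herpud1 and other members are given as part of the full account of the list. Agr2 is named outside this rule, chosen after its values were seen. Promoter windows are RefSeq's (GRCm38.p6). Alternatives were array weights, a replicate block, a prior with trend and robust estimation, the Gapdh difference as a covariate, median centring, repeated quantile normalization, probe set means per gene, and fits without dim genes, without cross-hybridising types and without each array in turn.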

Additional observations from a re-analysis of the deposited data

How the results depend on the processing

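Ern2 was lower in caspase-8 deficient cells under all 17 alternatives, from −1.24 to −0.87. It lost its call with the Gapdh difference as a covariate (−0.87), without control replicates 1 and 2 (−0.89) and without deficient replicate 1 and control replicate 3 together (−1.23). The settings that leave out 2 arrays were chosen after seeing the data. Without single arrays Ern2 ran from −1.24 to −0.97. It also lost its call without deficient replicate 2 or 3, and without control replicate 1 or 2. With the Gapdh covariate, and without deficient replicate 1 and control replicate 3 together, 0 of the 34 genes passed as lower. Without single arrays 0 to 1 did, and with array weights 3 did, Ern2, Pdia5 and Asns. Under all 17 alternatives 0 passed as higher. The count over the whole table was 141, and 240 with dim genes left out, 252 with a trend and robust prior, 1406 with array weights, 36 with the Gapdh covariate, 5 without control replicates 1 and 2, 58 without deficient replicate 1 and control replicate 3, and 18 to 251 without single arrays. The contrasts within arrays were run under 10 of the alternatives, those that change the probe sets or the arrays. There Ern2 minus Ern1 ran from −1.13 to −0.79, and Ern2 minus the median of the general ER genes from −1.08 to −0.81.

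Some differences of genes that had not passed changed sign, not only small ones. Those of Fkbp11 (−0.68) and Derl1 (−0.29) did so only in the settings that change the probe sets read. That of Ern1 (−0.23) did so in other settings too. For Ern1 and the remaining genes the cause was not tested. With the mean over probe sets Ern1 stood at 0.0070, Atf4 at −0.0089, Sel1l at 0.15 and Derl1 at 0.017, and without cross-hybridising types Derl1 at 0.38 and Fkbp11 at 0.37. Ern1 stood at 0.058 with array weights, and Atf4 at −0.049 and Edem1 at −0.0028 after repeated quantile normalization. With the Gapdh covariate Ern1, Calr and Herpud1 stood at 0.11, 0.031 and −0.21. Without control replicates 1 and 2, Ern1, Dnajb11, Calr, Edem1 and Herpud1 stood at 0.029, 0.020, 0.066, −0.0036 and −0.22. Without deficient replicate 1 and control replicate 3, Atf4 and Sdf2l1 stood at −0.040 and 0.22. Without single arrays Sdf2l1 ran from −0.22 to 0.13, Syvn1 from −0.080 to 0.15, Atf4 from −0.066 to 0.13, Derl3 from −0.19 to 0.068, Ern1 from −0.38 to 0.049 and Herpud1 from −0.026 to 0.34.

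With the replicate number as a block, 113 genes passed and Ern2 did too (−1.13, limma adjusted p = 0.0403), while Creb3l2 did not (0.0589). The numbers were not shown to pair the samples, since deviations of same-numbered arrays from their group means correlated at 0.077, 0.10 and −0.0074 across genes, and 2 of the 3 deficient arrays correlated best with their own number. Precision is limited by 3 arrays a group, with a median SE of 0.14 beside a median size of 0.22 for the differences of the 34 genes.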

Other observations

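The arrays differed in how often they held the extreme value of the 34 genes. Deficient replicate 1 was the lowest array for 14 of the 34 (41.2%), against 16.2% of all genes. Control replicate 1 was the highest for 15 (44.1%), against 12.2% of all genes. Control replicate 2, which has the largest Gapdh 3′ minus 5′ difference (0.93, against 0.68 in control replicate 1), was the highest for 8 of the 34 (23.5%), against 22.7% of all genes.

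The 5 genes whose pattern over the 6 arrays was most like that of Ern2 were Slc7a5, Zfp760, Ccnb2, Capn13 and Stat5b. Their Pearson correlations with Ern2 ran from 0.993 to 0.996, as a description of 6 arrays that share the split into groups, and from 0.91 to 0.998 after removal of the group means. The genes were picked among all genes by the correlation on these same arrays, so neither range tests a link to Ern2. Capn13 is the 1 of them that fell (log2 −1.11, limma adjusted p = 0.0268). Slc7a5, an amino acid transporter of the stress response list, read 6.51, 6.51 and 6.46 in deficient cells, against 7.06, 7.32 and 7.05 in controls, and did not pass (−0.65, limma adjusted p = 0.0584).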
